A study of Mus musculus with 9 samples.

Results

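RNA levels of 33 genes of the Hippo pathway were compared between mouse mammary tumour organoids targeted for E-cadherin loss and organoids with normal E-cadherin. The genes were chosen by symbol for their known roles, with earlier results of these libraries known. 17 of them encode core parts of the pathway and 16 are established targets of its coactivators YAP and TAZ. The deposited table holds 51912 genes, and all 33 were among the 17289 tested after a filter on low counts. Organoids are small epithelial fragments taken from a tumour and grown in a gel. Both groups came from FVB/NJ mice carrying MMTV::PyMT, a viral oncogene under a promoter active in mammary epithelium, and (R26)pCA::mT/mG, a fluorescent reporter that changes colour once Cre recombinase has acted. The 5 E-cad-KO samples carried floxed Cdh1 alleles, which Cre can delete, and the 4 WT samples were Cdh1+/+. Freshly isolated organoids of both groups received adeno-Cre overnight, so Cre exposure is not a difference between them, and were then kept for 48 h in collagen I with b-FGF2. The labels do not say which share of the cells recombined. The samples are called biological replicates, but no animals are named. The p-values here set the group difference against the variation between these samples only.

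The Hippo pathway is a kinase relay. MST kinases with the adaptor SAV1 activate LATS kinases with MOB1 adaptors, and LATS phosphorylates YAP and TAZ, which are then held in the cytoplasm or degraded. Merlin (encoded by Nf2) and the angiomotins favour this restraint at cell junctions, and E-cadherin contacts are known to feed into it. YAP and TAZ that reach the nucleus bind TEAD transcription factors and switch on genes for matrix proteins, adhesion and cytoskeletal control, several of which feed back on the pathway. The activity of the relay lies largely in phosphorylation and protein location, which RNA counts do not measure.

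Library totals ran from 44890302 to 62416955 counts in E-cad-KO and from 52603695 to 64763645 counts in WT. Levels are given as CPM, counts scaled to a common total, with TMM factors, where 1 CPM stood for 44.25 to 64.33 counts. Cdh1, the targeted gene, had 86.5, 118.3, 85.2, 87.3 and 79.0 CPM in E-cad-KO 1 to 5, against 246.5, 150.3, 201.2 and 159.3 CPM in WT 1 to 4. No E-cad-KO library reached the lowest WT library, and edgeR gave a log2 fold change of -1.05 (SE 0.16, adjusted p = 0.0275). Its adjusted p was 0.0644 to 0.0904 when E-cad-KO 1, 3, 4 or 5 or WT 3 was left out, and 0.0545 without both WT 1 and WT 4. The floxed exons are not named and the counts take in every exon, so RNA from a deleted allele can still be counted. Luminal epithelial markers summed to 4398 to 5677 CPM in E-cad-KO and 3382 to 4760 CPM in WT. Markers of myoepithelial cells summed to 3666 to 8424 CPM in E-cad-KO and 2532 to 12477 CPM in WT, and those of fibroblasts to 127.3 to 213.1 CPM in E-cad-KO and 62.7 to 348.5 CPM in WT. Macrophage markers summed to 24.5 to 145.9 CPM in E-cad-KO and 16.8 to 355.5 CPM in WT, with 0 of 8 at 0 counts throughout. Endothelial markers summed to at most 6.55 CPM in E-cad-KO and 12.0 CPM in WT. Pericyte markers summed to 54.9 to 78.5 CPM in E-cad-KO and 65.8 to 93.2 CPM in WT. Most of that sum was Notch3, at 41.0 to 70.1 CPM in E-cad-KO and 43.9 to 87.8 CPM in WT. None of the T cell or adipocyte markers reached 1 CPM in any library. In such bulk samples, fewer cells of a type and less RNA per cell cannot be told apart. Across all tested genes, 0.908% were called higher in E-cad-KO and 0.503% lower at an edgeR adjusted p under 0.05, or 157 and 87 genes. With upper-quartile scaling the split was 123 higher and 151 lower.

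Most core genes lay a little higher in E-cad-KO organoids, but 1 of 17, Tead4, passed the test (5.88%, beside 0.908% of all tested genes), and none was called lower. The log2 fold change was positive for 16 of 17 core genes, against 48.0% of all tested genes. Its median over the core genes was 0.14, against -0.01 over all tested genes. At an unadjusted p under 0.05, 7 core genes were higher and 0 lower, where the shares of all tested genes were 8.74% and 7.99%. The groups did not overlap for 4 core genes, all higher in E-cad-KO (Wwtr1, Tead2, Tead4 and Lats2), beside 4.28% of all tested genes in that direction and 3.83% in the other.

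Of the coactivators, Wwtr1, which encodes TAZ, had 145.9, 158.0, 150.0, 146.3 and 143.0 CPM in E-cad-KO, against 128.5, 135.6, 129.5 and 122.8 CPM in WT. Every E-cad-KO library lay above every WT library, with means of 148.7 ± 5.77 CPM in E-cad-KO and 129.1 ± 5.23 CPM in WT (SD, n = 5 and 4). The log2 fold change of 0.20 (SE 0.05) did not pass the test (edgeR adjusted p = 0.0761). Yap1 had 107.7, 114.7, 121.5, 102.1 and 105.8 CPM in E-cad-KO, against 110.9, 106.2, 101.5 and 82.3 CPM in WT. The Yap1 groups overlapped, and the lowest value was that of WT 4. Yap1 differed by a log2 fold change of 0.14 (SE 0.09, edgeR adjusted p = 0.474) over all libraries and by 0.06 (SE 0.07) without WT 4. Per kilobase of the longest annotated transcript, Wwtr1 stood at 31.6 ± 1.23 and Yap1 at 20.9 ± 1.46 RPKM in E-cad-KO, against 27.5 ± 1.11 and 19.0 ± 2.38 RPKM in WT, so the TAZ transcript was the more abundant of the pair in both groups.

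Tead4 was the core gene that rose. The 4 TEAD factors bind DNA for YAP and TAZ, which have no DNA-binding domain of their own. Tead4 (ENSMUSG00000030353; GRCm38 chromosome 6, 128224288 to 128300823) had 20.8, 17.4, 19.5, 21.3 and 21.6 CPM in E-cad-KO, against 14.9, 12.5, 11.1 and 15.6 CPM in WT. The groups did not overlap, and the levels were 1.49-fold apart (log2 fold change 0.57, SE 0.11, edgeR adjusted p = 0.0416). Leaving out WT 4 kept the call (adjusted p = 0.0281). Leaving out any of the other 8 libraries gave an edgeR adjusted p of 0.0551 to 0.111, with a log2 fold change between 0.49 and 0.63.

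The other TEAD genes did not pass the test. Tead1 had 107.6, 103.5, 94.0, 116.4 and 106.3 CPM in E-cad-KO, against 81.6, 77.5, 89.5 and 94.0 CPM in WT. E-cad-KO 3 and WT 4 met at the same rounded value, and the other libraries of the groups were apart. Tead1 differed by a log2 fold change of 0.30 (SE 0.08, edgeR adjusted p = 0.0808), and without WT 4 it was 0.35 (adjusted p = 0.0487). Tead2 had 89.5, 90.4, 83.8, 86.0 and 87.8 CPM in E-cad-KO, against 75.3, 81.6, 80.0 and 67.6 CPM in WT. Its groups did not overlap, although the gap between the nearest libraries was small, with a log2 fold change of 0.20 (SE 0.06, edgeR adjusted p = 0.133). Tead3 was the only core gene with a negative log2 fold change, -0.09 (SE 0.10, edgeR adjusted p = 0.726), with 22.0 to 30.2 CPM in E-cad-KO and 25.3 to 32.0 CPM in WT. Per kilobase the order of the means was Tead2, Tead1, Tead3 and Tead4 in both groups. In E-cad-KO they stood at 25.8 ± 0.79, 10.6 ± 0.81, 7.76 ± 0.92 and 6.54 ± 0.56 RPKM, and in WT at 22.4 ± 1.84, 8.60 ± 0.75, 8.26 ± 0.91 and 4.40 ± 0.69 RPKM. Tead1 and Tead3 were within their spread of each other in WT, and the ranges of Tead3 and Tead4 met in E-cad-KO. Tead4 was the least abundant TEAD by mean and had the largest fold change.

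Among the kinases, Lats2 had the largest fold change. LATS1 and LATS2 phosphorylate YAP and TAZ directly, and Lats2 is itself known as a YAP target. Lats2 had 34.4, 29.0, 30.9, 36.6 and 40.4 CPM in E-cad-KO, against 22.4, 23.0, 25.8 and 28.4 CPM in WT. The groups stood apart by a narrow margin, between E-cad-KO 2 and WT 4. Lats2 differed by a log2 fold change of 0.46 (SE 0.11, edgeR adjusted p = 0.0655), and without WT 4 it was 0.53 (adjusted p = 0.0442). Lats1 had 85.1 to 94.0 CPM in E-cad-KO and 72.2 to 87.9 CPM in WT, with a log2 fold change of 0.13 (SE 0.06, edgeR adjusted p = 0.346). The MST kinases had log2 fold changes of 0.14 (SE 0.08) for Stk3, which encodes MST2, and 0.04 (SE 0.05) for Stk4, which encodes MST1, and both overlapped between the groups.

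The adaptors and junctional members varied little. Sav1, Mob1a and Mob1b, the scaffold and cofactors of the kinases, had log2 fold changes of 0.13, 0.10 and 0.04, and Nf2 had 0.09. Their edgeR adjusted p-values lay between 0.266 and 0.820. Mob1a was the most abundant core transcript per kilobase, with 62.5 ± 4.52 RPKM in E-cad-KO and 58.3 ± 4.21 RPKM in WT. Of the angiomotins, which hold YAP at junctions and on actin, Amotl1 was the most abundant in CPM and per kilobase and had a log2 fold change of 0.08. Amot was the least abundant core transcript, with 11.1 to 16.6 CPM in E-cad-KO and 9.67 to 12.9 CPM in WT and a log2 fold change of 0.30 (SE 0.12, edgeR adjusted p = 0.246). Amotl2, also known as a YAP target, had 55.5, 74.7, 67.2, 48.2 and 49.7 CPM in E-cad-KO, against 71.2, 44.9, 50.3 and 30.1 CPM in WT. It had the widest spread of the core genes within both groups, and WT 1 was among its highest libraries. The log2 difference came to 0.27 (SE 0.23, edgeR adjusted p = 0.629), and to 0.09 without WT 4. The exons of Sav1, Tead2 and Yap1 overlap genes on the other strand (Atl1, Cd37 and Gm20416) and those of Lats2 overlap Gm49361 on its own strand. Whether counting used the strand is not given in the sources used here, so reads there may be given to either gene or left out. For Lats2 and Gm49361 the strand would not separate them. Atl1 had 8.16 CPM in E-cad-KO and 7.94 CPM in WT, Cd37 and Gm20416 had under 1 CPM, and no level was at hand for Gm49361.

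**Figure D1:**
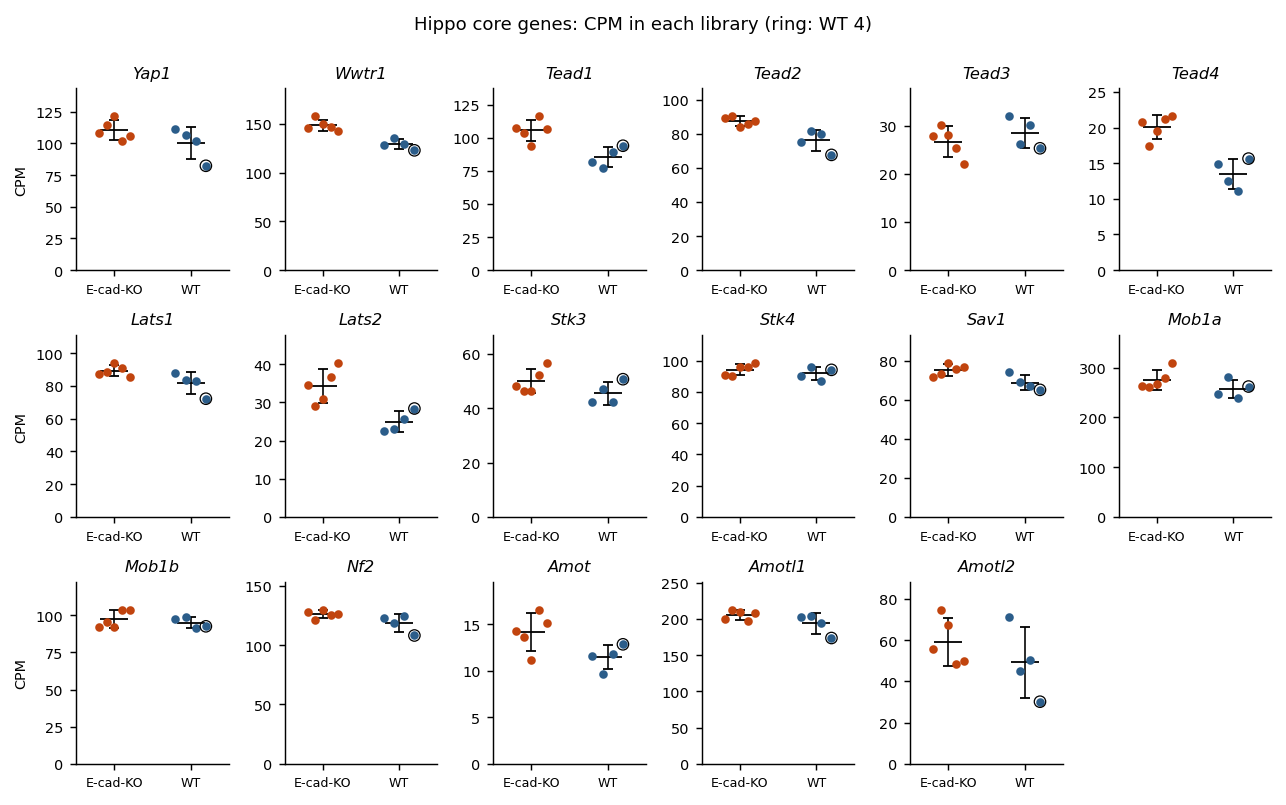
CPM (linear axes from 0) of the 17 core genes in each library, 5 E-cad-KO on the left and 4 WT on the right of each panel. Points are libraries, the line is the mean, the bar is ± SD, and WT 4 is ringed. Wwtr1, Tead2, Tead4 and Lats2 have no overlap between the groups, while Stk4, Mob1b and Tead3 nearly coincide.

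The targets were read beside the sequence before their start sites, because TEAD factors are known to bind the letters GGAATG. RefSeq promoter windows on GRCm38.p6, 250 bases before to 50 after an annotated start, were at hand for 25 of the 33 genes, 11 of them targets. No window was used for Tead1, Tead4, Stk3, Ccn2, Dock5, Asap1, Nuak2 and Fjx1. The letters GGAATG, searched on both strands, occurred in 13 of the 25 genes (52.0%), in 6 of 11 targets and in 7 of 14 core genes, and in 14.9% of the 11820 tested genes with a window. Counted per window, because some genes have several, it was 48.4% of 31 windows and 14.7% of all 32851. A match describes the letters only, and binding was not measured. The windows of 3 familiar targets with a match and of Nt5e, a target that rose and whose window had none, are shown 5′ to 3′ on the gene's strand, with GGAATG or its reverse complement CATTCC in capitals. Ankrd1 (chr19:36119795-36120094, minus strand) has it 210 and 123 bases before the start, Ccn1 (chr3:145649936-145650235, minus strand) 103 before, and Axl (chr7:25788684-25788983, minus strand) 233 before. The Nt5e window is chr9:88327359-88327658, plus strand.
Ankrd1: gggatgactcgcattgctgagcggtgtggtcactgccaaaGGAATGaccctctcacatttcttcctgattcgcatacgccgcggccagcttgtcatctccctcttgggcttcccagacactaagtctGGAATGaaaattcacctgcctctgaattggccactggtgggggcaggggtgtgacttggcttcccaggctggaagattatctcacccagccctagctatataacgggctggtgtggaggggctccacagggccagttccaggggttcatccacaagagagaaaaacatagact
Ccn1: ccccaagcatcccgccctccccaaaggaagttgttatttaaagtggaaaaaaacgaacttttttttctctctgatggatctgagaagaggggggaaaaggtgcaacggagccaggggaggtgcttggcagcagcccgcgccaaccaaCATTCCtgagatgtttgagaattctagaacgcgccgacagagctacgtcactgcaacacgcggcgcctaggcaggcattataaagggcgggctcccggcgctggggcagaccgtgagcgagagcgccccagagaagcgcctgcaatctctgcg
Axl: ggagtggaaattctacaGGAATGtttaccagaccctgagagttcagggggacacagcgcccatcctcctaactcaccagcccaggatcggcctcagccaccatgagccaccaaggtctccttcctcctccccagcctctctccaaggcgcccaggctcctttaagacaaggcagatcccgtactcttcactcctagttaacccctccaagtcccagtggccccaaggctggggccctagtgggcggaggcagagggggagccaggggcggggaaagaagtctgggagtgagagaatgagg
Nt5e: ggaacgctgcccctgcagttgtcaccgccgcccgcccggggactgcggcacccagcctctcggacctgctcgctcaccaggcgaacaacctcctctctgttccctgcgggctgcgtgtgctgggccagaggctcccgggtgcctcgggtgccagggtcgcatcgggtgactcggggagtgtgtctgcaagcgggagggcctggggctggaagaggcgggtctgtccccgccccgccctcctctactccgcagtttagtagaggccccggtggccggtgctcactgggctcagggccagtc
The letters TGANTCA, the site of AP-1, a factor known to bind near TEAD at many enhancers, overlap with GGAATG at no position in these windows. They occurred in 1 of the 25 genes, F3, and in 6.8% of the tested genes with a window.

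Of the 16 targets, 4 rose (Asap1, Nt5e, Nuak2 and Dock5) and 0 fell, a share of 25.0% beside 0.908% of all tested genes called higher. The log2 fold change was positive for 15 of 16 targets and its median was 0.39, against -0.01 over all tested genes. At an unadjusted edgeR p under 0.05, 11 targets were higher and 0 lower, where the shares of all tested genes were 8.74% and 7.99%. For 8 targets (Ccn1, Ankrd1, Axl, Nt5e, Myof, Dock5, Asap1 and Nuak2) every E-cad-KO library lay above every WT library, and for 0 the reverse. Of all tested genes, 4.28% were apart in the first direction and 3.83% in the other. Only Rbms3 had a negative log2 fold change. The summed CPM of the targets was 1089 to 1234 in E-cad-KO and 753 to 941 in WT. These counts over the list are a description, since the genes were picked with earlier results of these libraries known.

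Asap1 rose with the smallest p of the 33 genes. It encodes an ARF GTPase-activating protein of focal adhesions and invasive protrusions. Asap1 (ENSMUSG00000022377; chromosome 15, 64086857 to 64382919) had 41.0, 33.3, 38.8, 37.9 and 36.5 CPM in E-cad-KO, against 26.3, 24.7, 26.5 and 28.6 CPM in WT. The groups were well separated, with a 1.41-fold difference (log2 fold change 0.50, SE 0.07, edgeR adjusted p = 0.0203). The call was kept in 5 of the 9 fits with 1 library left out. It was lost when E-cad-KO 1, 3 or 4 or WT 3 was left out, with edgeR adjusted p-values of 0.0518, 0.0618, 0.0566 and 0.0777 in that order.

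Nt5e rose 1.39-fold. It encodes CD73, the cell surface enzyme that makes adenosine from AMP. Nt5e (ENSMUSG00000032420; chromosome 9, 88327197 to 88372092) had 145.2, 140.2, 147.8, 133.3 and 153.2 CPM in E-cad-KO, against 112.5, 120.8, 85.6 and 96.6 CPM in WT. The E-cad-KO libraries were close together and all above the WT libraries, which varied more, at 144 ± 7.58 CPM in E-cad-KO and 104 ± 15.8 CPM in WT. Nt5e had a log2 fold change of 0.47 (SE 0.09, edgeR adjusted p = 0.0423). Among the fits with 1 library left out, the call was kept without WT 2 (adjusted p = 0.0395). In the other 8 the edgeR adjusted p was 0.0571 to 0.108. Among the windows shown above, that of Nt5e is the one without GGAATG, while 6 of all 11 targets with a window had a match. No window was used for the other called genes of the 33. The Nt5e window lies inside the gene coordinates given here, so the bases before 88327197 were not searched.

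Nuak2, a kinase of the AMPK family that is known to feed back on LATS, rose 1.58-fold at a low level. Nuak2 (ENSMUSG00000009772; chromosome 1, 132316126 to 132333488) had 7.04, 8.43, 8.45, 9.55 and 10.5 CPM in E-cad-KO, against 5.47, 5.51, 4.92 and 6.37 CPM in WT. The lowest E-cad-KO library lay just above WT 4, the highest WT library. For Nuak2 edgeR gave a log2 fold change of 0.66 (SE 0.14, adjusted p = 0.0438). Dock5, an activator of the GTPase Rac, rose 1.24-fold. Dock5 (ENSMUSG00000044447; chromosome 14, 67752135 to 67933442) had 35.3, 33.04, 30.1, 31.5 and 34.0 CPM in E-cad-KO, against 24.8, 26.3, 26.4 and 28.1 CPM in WT. Both groups were tight and did not overlap, with a log2 fold change of 0.31 (SE 0.06, edgeR adjusted p = 0.0453). With WT 4 left out the edgeR adjusted p was 0.0409 for Nuak2 and 0.0433 for Dock5. With any other library left out it was 0.0591 to 0.134 for Nuak2 and 0.0783 to 0.130 for Dock5.

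Ankrd1 had the largest fold change of the 33 genes without passing the test. It encodes a nuclear ankyrin repeat protein and is among the most used YAP reporters. Ankrd1 had 27.2, 24.1, 25.3, 49.9 and 40.7 CPM in E-cad-KO, against 15.4, 15.2, 12.1 and 20.4 CPM in WT. All E-cad-KO libraries were above all WT libraries, but E-cad-KO 4 and 5 stood far above E-cad-KO 1 to 3. Ankrd1 had a log2 fold change of 1.09 (SE 0.25, edgeR adjusted p = 0.0655), a 2.12-fold difference, and between 0.90 and 1.23 with any 1 library left out. E-cad-KO 4 and 5 were also the E-cad-KO libraries with the most macrophage marker counts, and in WT the highest Ankrd1 was that of WT 4, the library with the most. WT 3 went the other way. Its macrophage markers summed to 89.1 CPM, above WT 1 and WT 2, and its Ankrd1 was the lowest of all 9 libraries. With the macrophage markers as a covariate, the log2 fold change of Ankrd1 was 1.10 (edgeR adjusted p = 0.0140), in a fit that called 1204 of all tested genes. A part of macrophages in the Ankrd1 level was not tested.

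The matricellular proteins CCN1 and CCN2, also called CYR61 and CTGF, are the other classic YAP reporters. Ccn1 had 116.5, 130.3, 119.3, 113.1 and 124.4 CPM in E-cad-KO, against 99.4, 80.9, 102.3 and 56.0 CPM in WT. E-cad-KO libraries were tight and all above WT, while WT 4 was far below the other WT libraries. Ccn1 had a log2 fold change of 0.51 (SE 0.15, edgeR adjusted p = 0.130) and of 0.36 (SE 0.08, adjusted p = 0.0565) without WT 4. Ccn2 had 194.0, 245.9, 186.5, 169.4 and 173.9 CPM in E-cad-KO, against 157.8, 175.3, 172.4 and 67.2 CPM in WT. E-cad-KO and WT 1 to 3 overlapped, and WT 4 alone was low. The Ccn2 log2 fold change of 0.44 (SE 0.26, edgeR adjusted p = 0.443) became 0.20 (SE 0.11, adjusted p = 0.380) without WT 4. Per kilobase Ccn2 had the highest mean of the 33 transcripts in E-cad-KO, and in WT it was level with Mob1a within the spread, at 77.9 ± 12.3 RPKM in E-cad-KO and 57.5 ± 20.6 RPKM in WT.

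The membrane proteins Axl and Myof also separated the groups without a call. Axl, a receptor tyrosine kinase, had 156.0, 132.4, 170.4, 121.3 and 140.6 CPM in E-cad-KO, against 111.9, 118.1, 109.2 and 98.8 CPM in WT. The nearest libraries, E-cad-KO 4 and WT 2, were close, with a log2 fold change of 0.40 (SE 0.10, edgeR adjusted p = 0.0769). Myof, the membrane repair protein myoferlin, had 186.5, 207.7, 203.7, 166.6 and 169.0 CPM in E-cad-KO, against 155.4, 148.7, 138.7 and 131.8 CPM in WT. The groups did not overlap, and the log2 fold change of 0.38 (SE 0.08) was just outside the threshold (edgeR adjusted p = 0.0555).

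Ajuba and Ptpn14 are targets that also act on the pathway, AJUBA by inhibiting LATS and PTPN14 by holding YAP in the cytoplasm. Ajuba had 64.2 to 82.8 CPM in E-cad-KO and 41.0 to 67.3 CPM in WT, where WT 4 was lowest and WT 1 lay among the E-cad-KO values. Ajuba had a log2 fold change of 0.35 (SE 0.13, edgeR adjusted p = 0.209). Ptpn14 had 69.1, 67.7, 67.8, 81.8 and 77.5 CPM in E-cad-KO, against 57.9, 58.6, 56.6 and 73.2 CPM in WT. Here WT 4 was the high WT library and the other 3 were below all E-cad-KO libraries. Ptpn14 had a log2 fold change of 0.24 (SE 0.09, edgeR adjusted p = 0.217) and of 0.34 (adjusted p = 0.0527) without WT 4.

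The remaining targets overlapped between the groups. Fjx1, whose relative in Drosophila acts with the Fat and Dachsous cadherins, had 4.28 to 7.09 CPM in E-cad-KO and 3.46 to 4.58 CPM in WT, with a log2 fold change of 0.50 (SE 0.17, edgeR adjusted p = 0.172). Crim1, a transmembrane protein that binds growth factors, had 0.29 (SE 0.20), and F3, the coagulation starter tissue factor, had 0.20 (SE 0.17). E-cad-KO 2 was the highest library for F3, at 80.9 CPM, and the other E-cad-KO libraries had 43.3 to 58.1 CPM, against 44.1 to 55.9 CPM in WT. Gadd45a, a stress and DNA damage response gene, had 20.1 to 30.0 CPM in E-cad-KO and 14.6 to 29.3 CPM in WT. Its log2 fold change was 0.12 (SE 0.20) and -0.04 without WT 1. Rbms3, an RNA-binding protein, had 8.55 to 9.44 CPM in E-cad-KO and 8.01 to 11.5 CPM in WT, with a log2 fold change of -0.08 (SE 0.11) and 0.02 without WT 3. The exons of Ccn2, Ptpn14, Crim1 and Gadd45a overlap genes on the other strand (Gm15270, Gm26574, Fez2 and E230016M11Rik). Fez2 had 13.6 CPM in E-cad-KO and 12.9 CPM in WT, E230016M11Rik had 1.39 CPM in E-cad-KO and 1.79 CPM in WT, and the other partners under 1 CPM.

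**Figure D2:**
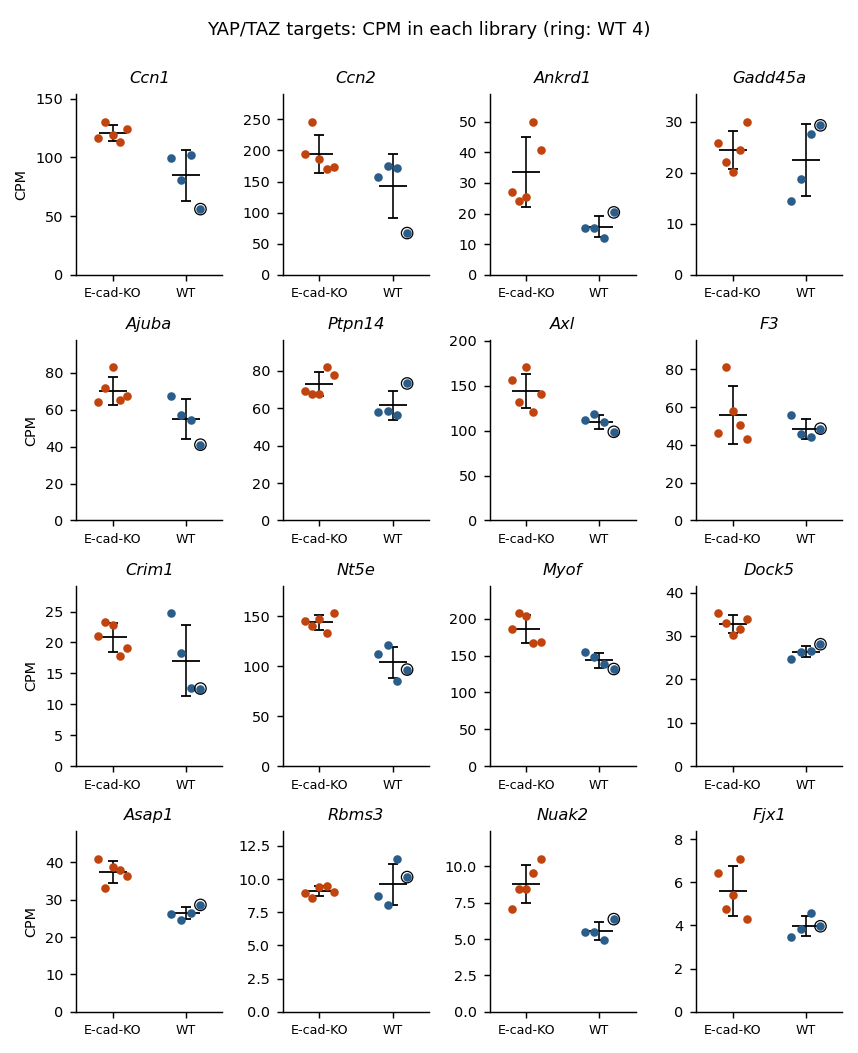
CPM (linear axes from 0) of the 16 targets in each library, 5 E-cad-KO on the left and 4 WT on the right of each panel. Points are libraries, the line is the mean, the bar is ± SD, and WT 4 is ringed. The ring is the lowest point for Ccn1, Ccn2, Ajuba and Axl and the highest WT point for Ankrd1, Ptpn14, Asap1, Dock5 and Nuak2.

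**Figure D3:**
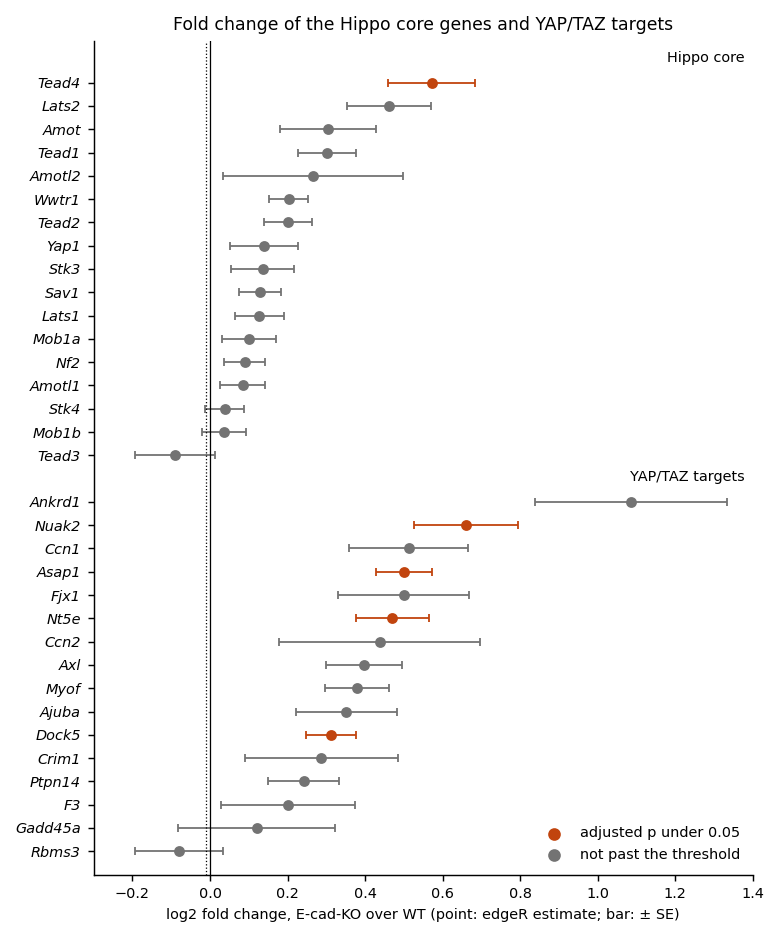
log2 fold change, E-cad-KO over WT, of the core genes (above) and targets (below), as the edgeR estimate with ± SE. The dotted line is the median of all tested genes at -0.01, orange points passed an adjusted p of 0.05, and the largest estimate, that of Ankrd1 at 1.09, is not among them.

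Genes around the core, taken from lists of known upstream activators, inhibitors, TEAD cofactors and further targets, were read from the same fit. Of 20 other activators of the kinases 2 rose and 0 fell, a share of 10% beside 0.908% of all tested genes called higher. Wwc2, a relative of the junctional scaffold KIBRA, had 79.0, 70.9, 75.1, 68.6 and 78.9 CPM in E-cad-KO, against 55.1, 60.9, 62.8 and 54.9 CPM in WT (log2 fold change 0.35, SE 0.07, edgeR adjusted p = 0.0367). Frmd6, a FERM protein related to the Drosophila regulator Expanded, had 62.4, 70.8, 62.4, 59.9 and 61.9 CPM in E-cad-KO, against 56.0, 48.6, 46.7 and 46.1 CPM in WT (log2 fold change 0.36, SE 0.07, edgeR adjusted p = 0.0427). Neither overlapped between the groups. Map4k3, a kinase that can act in place of MST, came next with a log2 fold change of 0.28 (SE 0.07, edgeR adjusted p = 0.0800). Of the 3 genes called in these lists, which are Wwc2, Frmd6 and Arhgef17 (below), 0 were kept without WT 2, WT 3 or any 1 of the 5 E-cad-KO libraries. Wwc2 was also lost without WT 1 and Frmd6 without WT 4.

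The inhibitors were the phosphatase complex STRIPAK, which acts on MST, and LIM proteins. All 13 had a positive log2 fold change, against 48.0% of all tested genes, and 0 were called by edgeR, DESeq2 or limma-voom. At an unadjusted edgeR p under 0.05, 2 of the 13 were higher, beside 8.74% of all tested genes. Among them was Strn at 0.18 (edgeR adjusted p = 0.233). Of 4 TEAD cofactors of the VGLL family, 2 were tested. Vgll3 had a log2 fold change of 0.38 (edgeR adjusted p = 0.429) and Vgll4 0.09 (edgeR adjusted p = 0.806), Vgll1 was too low to be tested, and Vgll2 had 0 counts in all libraries. Of 20 further YAP/TAZ targets, 19 were tested, 12 had a positive and 7 a negative log2 fold change, and the median was 0.22. Of these, 1 was called (5.26%), beside 0.908% of all tested genes called higher. Arhgef17, a guanine nucleotide exchange factor, rose, with 75.5, 73.6, 78.7, 75.8 and 75.0 CPM in E-cad-KO, against 63.2, 60.0, 63.1 and 54.2 CPM in WT (log2 fold change 0.33, SE 0.06, edgeR adjusted p = 0.0324). The E-cad-KO libraries of Arhgef17 were tight and all above WT. Dlc1, a GTPase-activating protein, had 26.3, 35.1, 28.0, 29.6 and 23.6 CPM in E-cad-KO, against 22.3, 16.5, 15.4 and 11.9 CPM in WT. Areg, which encodes the EGFR ligand amphiregulin, had 31.4, 31.5, 32.9, 31.5 and 37.9 CPM in E-cad-KO, against 20.2, 18.03, 17.6 and 31.3 CPM in WT. Neither group pair overlapped, WT 4 reached the E-cad-KO level of Areg almost, and neither gene was called (log2 fold change 0.78 and 0.60, edgeR adjusted p = 0.0574 and 0.0962).

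Within groups the targets varied more than the core genes. The median coefficient of variation was 6.99% in E-cad-KO and 8.22% in WT for core genes, and 11.1% in E-cad-KO and 13.9% in WT for targets. Relative to each gene's average across all 9 libraries, the mean log2 CPM of the targets was 0.16 to 0.19 in E-cad-KO and -0.29 to -0.17 in WT. That of the core genes was 0.07 to 0.10 in E-cad-KO and -0.16 to -0.04 in WT. Each E-cad-KO library was about as high as the next on this mean, although the genes behind it differed. Ankrd1 was highest in E-cad-KO 4 and 5, while Ccn2, F3 and Amotl2 were highest in E-cad-KO 2, and Axl, Ajuba and Yap1 in E-cad-KO 3.

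WT 4 was the lowest library on both means and the lowest of all 9 for 8 of 17 core genes and 6 of 16 targets, beside 21.3% of all tested genes. It also had the most counts of macrophage and fibroblast markers and the fewest of luminal ones. All 7 tested macrophage markers had a negative log2 fold change over the 9 libraries. Without WT 4 the median log2 fold change was 0.10 for core genes and 0.34 for targets. In that fit 3 core genes (Lats2, Tead1 and Tead4) and 3 targets (Asap1, Dock5 and Nuak2) were called, beside 334 of the 17495 genes tested there. With the macrophage markers as a covariate the medians were 0.13 and 0.37, and the edgeR calls were 4 core genes and 10 targets, where all tested genes gave 1204 calls. Immediate early and heat shock genes, known to respond to handling, had a summed CPM of 636.8 to 785.2 in E-cad-KO and 434.9 to 619.8 in WT, with no overlap. Their mean log2 CPM relative to each gene's average did overlap, at -0.03 to 0.30 in E-cad-KO and -0.45 to -0.01 in WT. Of 11 such genes, 9 had a positive log2 fold change, against 48.0% of all tested genes. Of the 11, 1 was called, the heat shock gene Hsph1 (0.71, SE 0.09, edgeR adjusted p = 0.0145), beside 0.908% of all tested genes called higher. Luminal markers had positive log2 fold changes for 7 of 8 genes, of which 5 had an unadjusted edgeR p under 0.05. Of all tested genes, 8.74% were higher at that threshold. Krt19 went the other way (-0.57, SE 0.28, edgeR adjusted p = 0.351). The part of stress genes and of luminal content in the values above was not tested.

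**Figure D4:**
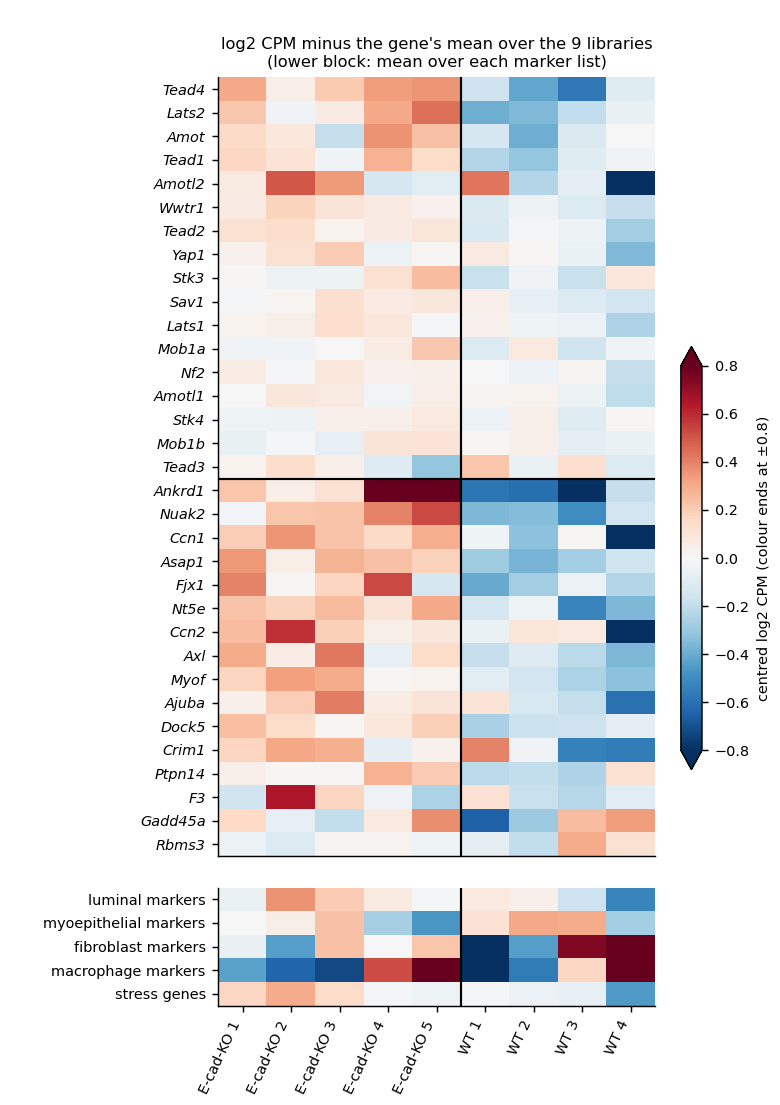
log2 CPM of the core genes (top), targets (middle) and marker lists (bottom, mean over each list) in each library, minus the mean over the 9 libraries, with colours ending at ±0.8. E-cad-KO libraries are left of the vertical line and WT libraries right of it. Targets are mostly red in E-cad-KO and blue in WT. WT 4 is darkest for Ccn1, Ccn2, Ajuba and the core gene Amotl2, and macrophage markers are highest in WT 4.

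The 5 calls among the 33 genes lay close to the threshold, between adjusted p of 0.0203 and 0.0453. With DESeq2, 5 core genes and 8 targets passed, where 1206 of all 17289 tested genes did. With limma-voom it was 2 and 6, where 511 of all tested genes passed, against 244 in the main edgeR fit. With upper-quartile scaling 0 core genes and 3 targets (Asap1, Myof and Nt5e) were called, beside 274 of all tested genes. No setting called any of the 33 genes lower. Over the 19 alternatives 31 of the 33 genes kept the sign of their log2 fold change, the exceptions being Gadd45a and Rbms3.

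**Figure D5:**
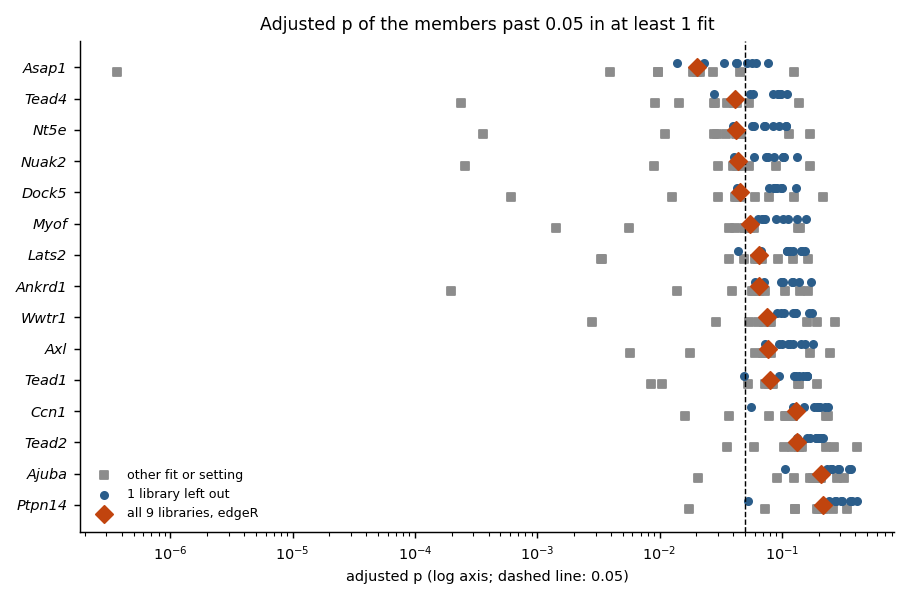
Adjusted p (log axis) of the 15 genes that passed 0.05 (dashed line) in at least 1 fit, with all 9 libraries (diamond), with 1 library left out (circles) and with other settings or tools (squares). The leftmost square of most rows is DESeq2. Asap1 lies left of the line in most fits, while Tead4, Nt5e, Nuak2 and Dock5 straddle it.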

How the data were processed

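RNA was purified on RNeasy columns from frozen collagen gels and made into libraries with a stranded TruSeq mRNA kit, per the labels' protocols. The deposited table holds raw read counts per gene, not normalized. The tools named by the submitters' processing notes are HTSeq, Bowtie2 and TopHat2, on GRCm38; versions, settings and the use of strand are not given. Of 51912 genes, 51633 had a symbol in the name table, and the other 279 held 0.0449% to 0.0534% of a library's counts. All value columns belonged to the 9 samples, and all pairs of libraries differed by more than sampling noise (smallest chi-square per degree of freedom 13.7).

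Groups were compared by quasi-likelihood in edgeR 4.0.16 (R 4.3.3), with TMM scaling, filterByExpr, robust dispersion estimates and no covariates, and p-values were adjusted by Benjamini-Hochberg over all 17289 tested genes. Calls were made at adjusted p under 0.05, two-sided, and no p was adjusted over a list. SDs reflect the spread between libraries. CPM used TMM-scaled totals, and RPKM divided CPM by the longest GENCODE M21 transcript; another isoform may be the expressed one. Alternatives were other scalings and filters, DESeq2 1.42.0, limma-voom (limma 3.58.1), non-robust dispersions, a replicate block, a macrophage covariate and libraries left out. Leaving libraries out of the count of genes without overlap was added after seeing the data. The routine was tested on simulated counts. The 33 genes, the other lists and the alternatives were chosen with earlier results of these data known. Named are the 33 genes, Cdh1, and the called genes and those of smallest p in each other pathway list, of which 1 is not reported here. Beyond that rule, stress genes and the markers Krt19 and Notch3 were named after their values were seen.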

Additional observations from a re-analysis of the deposited data

Results flagged for a closer look

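Within the 2 groups, the highest or lowest library of each of the 33 genes and of Cdh1 was set against the others by Dixon's criterion. It marked 3 of 68 tests, a share near the 1 in 20 that chance marks, so the marks may be ordinary spread. Cdh1 had 118.3 CPM in E-cad-KO 2 and 79.0 to 87.3 CPM in the other E-cad-KO libraries. Ccn2, the matricellular target, had 67.16 CPM in WT 4 and 157.8 to 175.3 CPM in the other WT libraries. Ptpn14, the phosphatase that binds YAP, had 73.22 CPM in WT 4 and 56.6 to 58.6 CPM in the other WT libraries. WT 4 was thus far below its group for one target and far above it for another.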

How the results depend on the processing

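Over all tested genes, 244 calls became 1206 with DESeq2, 511 with limma-voom, 1204 with the macrophage covariate, 79 without both WT 1 and WT 4, and 9 to 334 with 1 library left out (9 without WT 3, 334 without WT 4). The 1 core call became 0 with upper-quartile factors, 2 with the filter of at least 1 count, 5 with DESeq2, 2 with limma-voom, 4 with the macrophage covariate and 0 to 3 with 1 library left out. The 4 target calls became 8 with DESeq2, 10 with the macrophage covariate, 1 without both WT 1 and WT 4, and 0 to 3 with 1 library left out. The 3 calls among other pathway genes became 9 with DESeq2, 5 with limma-voom, 10 with the macrophage covariate and 0 to 3 with 1 library left out. Cdh1 was -0.94 (edgeR adjusted p = 0.0545) without both WT 1 and WT 4 and -1.16 to -0.89 with 1 library left out. The cause of these moves was not tested. Genes without overlap between groups, 12 of the 33 beside 8.11% of all tested genes in either direction, numbered 10 to 15 with other scalings or 1 library left out, where the share of all tested genes was 8.11% to 13.9%, and 17 without both WT 1 and WT 4, where it was 20.6%.

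With the replicate number as a replicate block, 0 of all tested genes were called and so 0 in the core, among targets and among other pathway genes, where edgeR gave an unadjusted p under 0.05 for 2418, 5, 12 and 16 of them in that order. Cdh1 was -0.99 (edgeR adjusted p = 0.171). No animals are named, so whether equal numbers mark pairs is not known. The correlations of same-numbered deviations from the group means were -0.42, 0.25, -0.03 and 0.34. So few values of mixed sign cannot settle whether the samples were paired, and that fit leaves E-cad-KO 5 without a partner.

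For the 33 genes under 19 alternatives, 627 values were recomputed. 552 kept their direction and side of the threshold, 48 kept the direction and lost a call, 25 gained one, and 2 changed sign, Gadd45a without WT 1 (-0.036, range -0.036 to 0.27 with 1 library left out) and Rbms3 without WT 3 (0.019, range -0.16 to 0.019). The lowest count of any of the 33 genes in a library was 204. How much of the spread came from depth was not measured.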
